A study of Mus musculus with 12 samples.

Results

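The respiratory chain genes were taken from the deposited count table by symbol. A row belonged to the set where its symbol began with Nduf (complex I), with Sdh followed by a, b, c or d (complex II), with Uqcr (complex III), with Cox4, Cox5, Cox6, Cox7 or Cox8 (complex IV) or with Atp5 (complex V), or where it was one of the protein-coding genes of the mitochondrial genome, written mt-Nd, mt-Co, mt-Cyt or mt-Atp. Ndufa4 and Ndufa4l2 begin with Nduf but were counted with complex IV. The rule found 117 of 34948 rows with a symbol. Of these, 13 were encoded in the mitochondrial genome (mt- members) and 98 in the nucleus, and 6 carried symbols ending in -ps, the form used for pseudogenes, and were kept apart. A further 5 rows ending in -ps and digits were outside the rule. After a filter on low counts, 111 members were tested, namely 13 mt-, 92 nuclear and 6 -ps members. The 6 nuclear members that did not pass were Cox4i2, Cox7b2, Cox8b, Cox6c2, Ndufb11b and Ndufa11b.

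The respiratory chain is a series of protein complexes in the inner mitochondrial membrane that pass electrons from NADH and succinate to oxygen and pump protons, and complex V, the ATP synthase, uses the proton gradient to make ATP. The chain is built from 2 genomes: most subunits are encoded by nuclear genes and imported, while a few core membrane subunits are transcribed from the mitochondrial DNA as long transcripts that are cut into single mRNAs. Complex II is encoded by nuclear genes alone. In macrophages, inflammatory activation is known to lower respiration in favour of glycolysis, and uptake of cell corpses to load the chain with new substrates.

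The set was followed in 12 bulk RNA-seq libraries of mouse peritoneal macrophages, 3 in each of 4 groups. KO R300 libraries came from Mac-Ern1KO mice, in which by the name the gene for the endoplasmic reticulum stress sensor IRE1α (Ern1) is deleted in macrophages, and the macrophages were kept for 2 h together with platelets that carried the antibody R300, directed against CD42. KO blank libraries came from mice of the same genotype, with the treatment given as Con. WT R300 and WT blank libraries were the corresponding groups from Ern1fl/fl mice, which carry the floxed allele without its deletion. All mice were 8-week-old males by the labels, Brewer thioglycolate (3%) had been injected into the peritoneum 3 days before the cells were taken, and the replicates were described as biological. The labels name neither the promoter that drives the recombinase nor whether the blank cells received uncoated platelets, so antibody, platelets and platelet RNA cannot be told apart in a comparison of R300 with blank.

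The libraries held 21759259 to 44263362 counts. The count of Ern1 did not mark the KO label by a lower level: its mean, in CPM (counts of a gene per 1000000 counts of a library, after scaling), was 211 ± 32.4 in KO R300 against 182 ± 38.6 in WT R300 libraries, and it was 140 ± 21.5 in KO blank against 108 ± 12.2 in WT blank libraries (SD, n = 3 each). A count over the whole gene can include reads outside a deleted exon, so KO and WT below are the libraries so labelled. In 4 libraries, 1 in each group, Xist, the RNA of the inactive X chromosome, was near 0. In the other 8 it stood at 143 to 590 CPM although the labels give males. The Y-linked genes Ddx3y, Uty, Kdm5d and Eif2s3y summed to 46.0 to 161 per 1000000 unscaled counts in these 8. They summed to 207 to 217 in the 4 libraries without Xist. Of the libraries with Xist, the KO ones had 464 to 590 CPM of it. The WT ones had 143, 148 and 169 CPM, and 431 CPM in the second WT blank library, so Xist differed with genotype too. WT R300 libraries 1 and 3, and KO R300 libraries 1 and 2, were more alike than other replicates (median chi-square per gene 1.38 and 1.53, against 6.14 to 10.1 for other pairs), so the spread within the R300 groups may be too small. Summed macrophage markers ran from 9955 to 11486 CPM in KO and from 15986 to 17869 CPM in WT libraries. Marker by marker the gap was smaller: the median log2 difference of KO and WT over 8 markers was -0.09 in blank and -0.14 in R300 libraries. Of these 8, 2 were above 0 in blank and 3 in R300 libraries, so the sum does not stand for each marker. Platelet markers ran from 68.0 to 124 CPM in KO R300 and from 63.4 to 105 CPM in KO blank libraries. In WT they ran from 51.9 to 102 CPM in R300 and from 52.1 to 88.5 CPM in blank libraries. The treatments thus overlapped in both genotypes. Mast cell markers were low and did not overlap between treatments. They stood at 34.8 to 50.3 CPM in KO R300 against 16.5 to 25 CPM in KO blank libraries. In WT they stood at 26.7 to 35.0 CPM in R300 against 11.7 to 12.6 CPM in blank libraries. The KO and WT blank libraries did not overlap either. Of the 6 markers, Gata2 was called in both genotypes. With R300, 0 of 6 B cell markers were above 0 in each genotype (median log2 -0.72 in KO and -1.14 in WT). All 7 mesothelial and fibroblast markers were above 0 in each (median 0.41 in KO and 1.17 in WT). None of these B cell, mesothelial and fibroblast markers was called, and their sums overlapped between treatments. The part of these differences in the results below was not tested. Values given without a library show only how far a result rests on that library.

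The mt- members other than mt-Atp8 were more abundant per kilobase than any nuclear member. Levels of different genes are given here as CPM per kilobase of the principal transcript, averaged over 12 libraries. mt-Co1, the catalytic subunit of complex IV, stood at 5553 ± 1164 CPM per kilobase, followed by mt-Co2 at 3684 ± 737 and mt-Atp6, the proton channel subunit of the ATP synthase, at 3375 ± 616 (SD, n = 12 libraries). mt-Co3 stood at 2686 ± 488, mt-Nd1 at 1887 ± 363 and mt-Cytb, the cytochrome b of complex III, at 1816 ± 345 CPM per kilobase. The other complex I subunits followed in the order mt-Nd4 (1649), mt-Nd4l (1489), mt-Nd5 (1086), mt-Nd2 (974), mt-Nd6 (880) and mt-Nd3 (570), and mt-Atp8 was last at 235 ± 88.8 CPM per kilobase. Between neighbours in this order, the gap was larger than the SD of both only from mt-Co1 to mt-Co2, from mt-Atp6 to mt-Co3, from mt-Co3 to mt-Nd1, from mt-Nd4l to mt-Nd5, from mt-Nd6 to mt-Nd3 and from mt-Nd3 to mt-Atp8. Within libraries, mt-Cytb was above mt-Nd4 and mt-Nd5 above mt-Nd2 in 12 of 12, while mt-Nd2 was above mt-Nd6 in 8 of 12. The libraries were made from poly(A) RNA without strand information, and mt-Nd6 is read from the opposite strand to the other mt- members, so its count may hold reads of the other strand.

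The nuclear subunits were lower per kilobase than the mt- members, except that Cox4i1 and Atp5b were above mt-Atp8, and their medians differed by complex. The median over the subunits was 26.1 CPM per kilobase for complex I, 54.2 for complexes II and III, 94.1 for complex IV and 76.4 for complex V, against medians of 1086 for the mt- members of complex I and 3684 for those of complex IV. Within complex I, Ndufb7 (62.8 CPM per kilobase) and Ndufa7 (59.4), both accessory subunits, were highest and Ndufa12 (4.67) lowest. Sdhd and Sdhb, a membrane anchor and the iron-sulfur subunit of complex II, stood at 56.8 and 55.1, and Sdhc, the other anchor, at 18.5 CPM per kilobase. In complex III the highest were Uqcrq (118) and Uqcrh (78.2), small subunits. Complex IV was led by Cox4i1 (260 ± 18.6) and Cox6a1 (175 ± 11.0), and complex V by Atp5b (237 ± 12.4) and Atp5a1 (170 ± 10.2), the catalytic and the regulatory subunit of its F1 head (CPM per kilobase, SD over 12 libraries). The 8 assembly factors named Ndufaf, which help to build complex I and leave it, ranged from 2.71 to 9.42 CPM per kilobase and their median was 4.37. Atp5g1, Uqcrq, Atp5md and Atp5d have principal transcripts of quite different lengths, so their levels per kilobase depend on the one chosen.

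**Figure D1:**
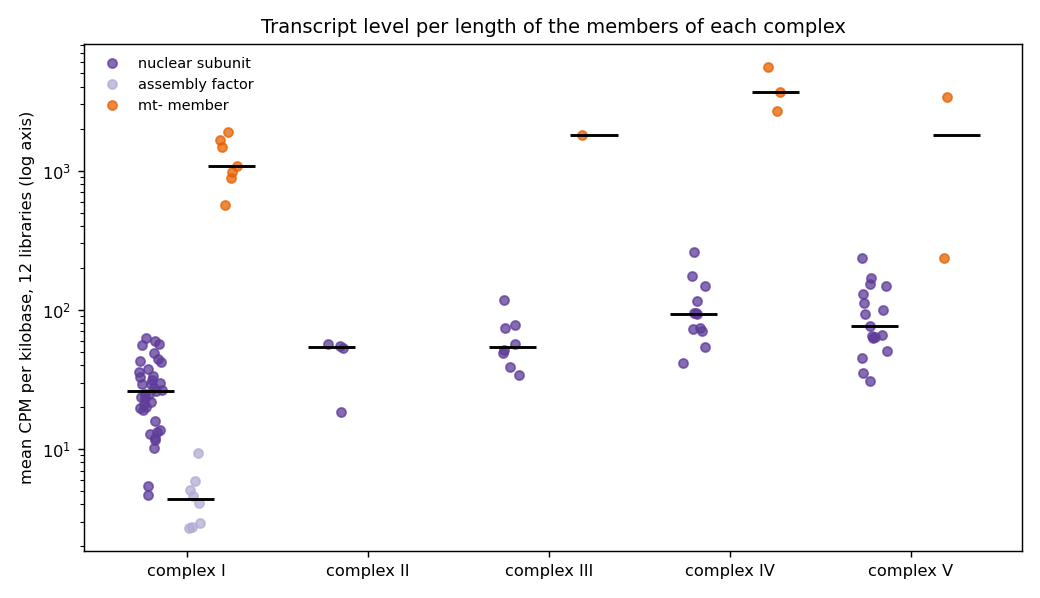
Mean CPM per kilobase over 12 libraries (log axis) of each nuclear subunit, assembly factor and mt- member, by complex; each point is a gene and bars are medians, and isoforms and gene copies that were nearly silent are left out. The mt- members lie above the nuclear ones of their complex except mt-Atp8 (235), which lies beside Atp5b (237).

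Several complex IV subunits exist as isoforms from different genes, and one form made up nearly all of each pair. Cox4i1, the ubiquitous form, was 99.9% of the Cox4 family per kilobase, and Cox4i2, known from lung and hypoxic cells, had at most 10 reads in a library. Cox6a1 was 99.1% and Cox6b1 98.9% of their families, against the heart and muscle form Cox6a2 and the testis form Cox6b2. Cox8a was 99.9% of its family, and no read was counted for Cox7b2 in any of the 12 libraries. Ndufa4, a subunit first assigned to complex I and counted here with complex IV, was 99.2% of the pair with Ndufa4l2, a hypoxia-induced form. The Cox7a family was mixed: Cox7a2l, which joins complexes III and IV into supercomplexes, made up 62.5 ± 4.08%, Cox7a2 36.0 ± 3.93% and the muscle form Cox7a1 1.5 ± 0.305% (SD, n = 12 libraries). Of the genes for the same c subunit of the ATP synthase ring, Atp5g2 made up 43.5 ± 1.59%, Atp5g3 42.1 ± 1.51% and Atp5g1 14.5 ± 0.978%. Per group, the Cox7a2l share was 60.1 ± 4.12% in KO R300 and 63.5 ± 1.22% in KO blank, and 60.1 ± 4.96% in WT R300 and 66.4 ± 2.69% in WT blank libraries (SD, n = 3 each), so the ranges of mean ± SD overlapped in each genotype.

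Summed over the set, the mt- members took 2.14 to 3.75% of all counts in a library. Their sum was 23136, 22130 and 29797 CPM in KO R300 libraries, against 21267, 26297 and 30815 CPM in KO blank libraries. It was 21536, 27457 and 22133 CPM in WT R300 libraries, against 20208, 37456 and 27322 CPM in WT blank libraries. The groups overlapped throughout, and both the highest and the lowest library of all 12 were WT blank ones. The second WT blank library was the highest of the 12 for 13 of 13 mt- members, and the first was the lowest for 12 of 13. The second WT blank library also had the highest summed markers of B cells (268 CPM, against 55.6 to 241 CPM in the others) and of erythroid cells (321 CPM, against 2.41 to 138 CPM). It was highest too for neutrophil (277 CPM, against 152 to 274 CPM) and T and NK cell markers (6.17 CPM, against 1.26 to 4.16 CPM). Its mesothelial and fibroblast markers were the lowest (96.7 CPM, against 116 to 970 CPM). The part of these cells in its mt- sum was not tested. In 3 of the 4 groups the highest mt- sum was in the library without Xist. In bulk RNA, fewer cells of a type and less RNA per cell cannot be told apart.

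The nuclear sum was lower and far steadier. It was 4522, 4332 and 4599 CPM in KO R300 libraries, against 3969, 4486 and 4473 CPM in KO blank libraries. It was 4453, 4448 and 4382 CPM in WT R300 libraries, against 4147, 4282 and 4314 CPM in WT blank libraries. The 3 WT R300 libraries lay above the 3 WT blank ones on this scale, while the KO groups overlapped. As a plain share of counts the WT groups overlapped too, at 0.442, 0.422 and 0.443% in WT R300 and 0.441, 0.429 and 0.422% in WT blank libraries. Over members of at least 10 CPM, the coefficient of variation within groups had a median of 21.1% for 13 mt- members, from 18.3 to 35.7%, and of 7.75% for 76 nuclear members, from 2.87 to 23.1%.

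The ratio of mt- to nuclear counts did not separate the groups. It was 5.12, 5.11 and 6.48 in KO R300 libraries, against 5.36, 5.86 and 6.89 in KO blank libraries. It was 4.84, 6.17 and 5.05 in WT R300 libraries, against 4.87, 8.75 and 6.33 in WT blank libraries. The means were 5.57 ± 0.789 in KO R300 and 6.04 ± 0.780 in KO blank, and 5.35 ± 0.718 in WT R300 and 6.65 ± 1.96 in WT blank libraries (SD, n = 3 each). As the difference of mean log2 ratios, R300 minus blank was -0.12 in KO and -0.28 in WT libraries, against a pooled SD within groups of 0.268. Without the second WT blank library the WT difference was -0.06, and without the first it was -0.48. The KO difference was -0.02 without KO blank library 3, -0.06 without KO R300 library 1 or 2, -0.20 without KO blank library 1 and -0.23 without KO R300 library 3. Within the libraries that had Xist the differences were -0.13 in KO and -0.40 in WT, and between the single libraries without Xist they were -0.09 and -0.04.

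**Figure D2:**
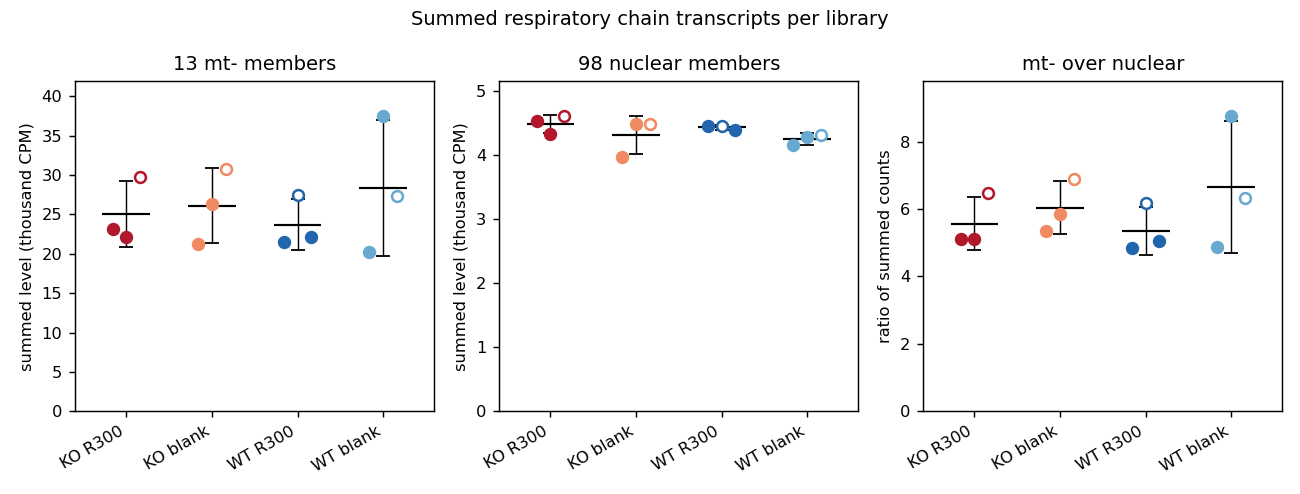
Summed CPM (in units of 1000) of 13 mt- and 98 nuclear members and the ratio of the 2 sums, in each library of the 4 groups; each point is a library, open points are libraries without Xist, and bars show the mean ± SD of 3. The mt- sum spans 20208 to 37456 CPM, both ends among WT blank libraries, while the nuclear sum spans 3969 to 4599 CPM.

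The comparisons of R300 with blank ask whether contact with the coated platelets was followed by a change of these transcripts. No member was called by edgeR's quasi-likelihood test at a Benjamini-Hochberg adjusted p under 0.05, neither in KO, where 0.834% of 16546 tested genes were called, nor in WT, where 0.623% were. At an unadjusted p under 0.05 there were 3 of 92 nuclear members in KO, against 8.78% of all genes, and 3 in WT, against 8.72%; no mt- member passed in either. Fitted changes of nuclear members were small and mostly above 0: 73 of 92 in KO with a median log2 change of 0.07, where 49.3% of all genes were above 0, and 75 of 92 in WT with a median of 0.08, where 49.1% were. The 95% confidence interval lay within 1.5-fold in either direction for 83 of 92 nuclear members in KO and for 83 in WT. The 2 comparisons use different control libraries and no library in common.

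Those medians depended on how the libraries were scaled, and the median of all genes moved with them. The main fit scaled by the trimmed mean of M values, where the median of all genes was -0.004 in KO and -0.005 in WT. With plain library totals 50 of 92 nuclear members were above 0 in KO (median 0.01) and 60 in WT (median 0.04). The median of all genes was then -0.07 in KO and -0.05 in WT. Leaving out the first KO blank library also brought the KO median to 0.01. Members with short transcripts lay a little higher: the median change in KO was 0.09 for 29 members under 600 bases and 0.02 for 33 members of 1000 bases or more, and in WT 0.10 and 0.05. Over all genes of these lengths the medians were 0.03 and -0.01 in KO and -0.04 and -0.002 in WT, so short genes as a whole lay higher in KO and lower in WT. The median transcript was 772 bases for nuclear members and 2474 bases for all tested genes, and the part of length in the medians was not tested.

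By complex, the nuclear medians of the log2 change stood close together. They cover all tested nuclear members, with the assembly factors and gene copies of complex I and the scarce isoforms of complex IV. The medians of the levels above left these out. Complex I gave 0.05 in KO and 0.10 in WT over 47 members, complex II 0.05 and 0.06 over 4, complex III 0.12 and 0.05 over 8, complex IV 0.07 and 0.07 over 16, and complex V 0.08 and 0.06 over 17. Inside complex I, 25 of 30 accessory subunits were above 0 in KO and 28 in WT, while the 7 core subunits, which carry the electrons, had 4 above 0 in each genotype and the 8 assembly factors 5. The same complexes' mt- subunits were on the other side of 0 in WT, where 0 of 13 were above 0 and the values ran from -0.31 to -0.20 with a median of -0.25. In KO, 2 of 13 were above 0 and the median was -0.07. No mt- interval in WT was within 1.5-fold, against 8 of 13 in KO, so changes of that size were not excluded for mt- members in WT. The median SE of the mt- members was 0.228 in both genotypes. These counts thus differed with the distance of the estimates from 0 and not with their precision. Without the second WT blank library the mt- median in WT was 0.00 with 7 of 13 above 0, and without the first it was -0.44. In KO it was 0.06 without KO blank library 3 and -0.21 without KO R300 library 3. With 1 library of each near-alike R300 pair, it was 0.01 in KO with 9 of 13 above 0. In WT it was then -0.22 with 0 of 13 above 0.

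**Figure D3:**
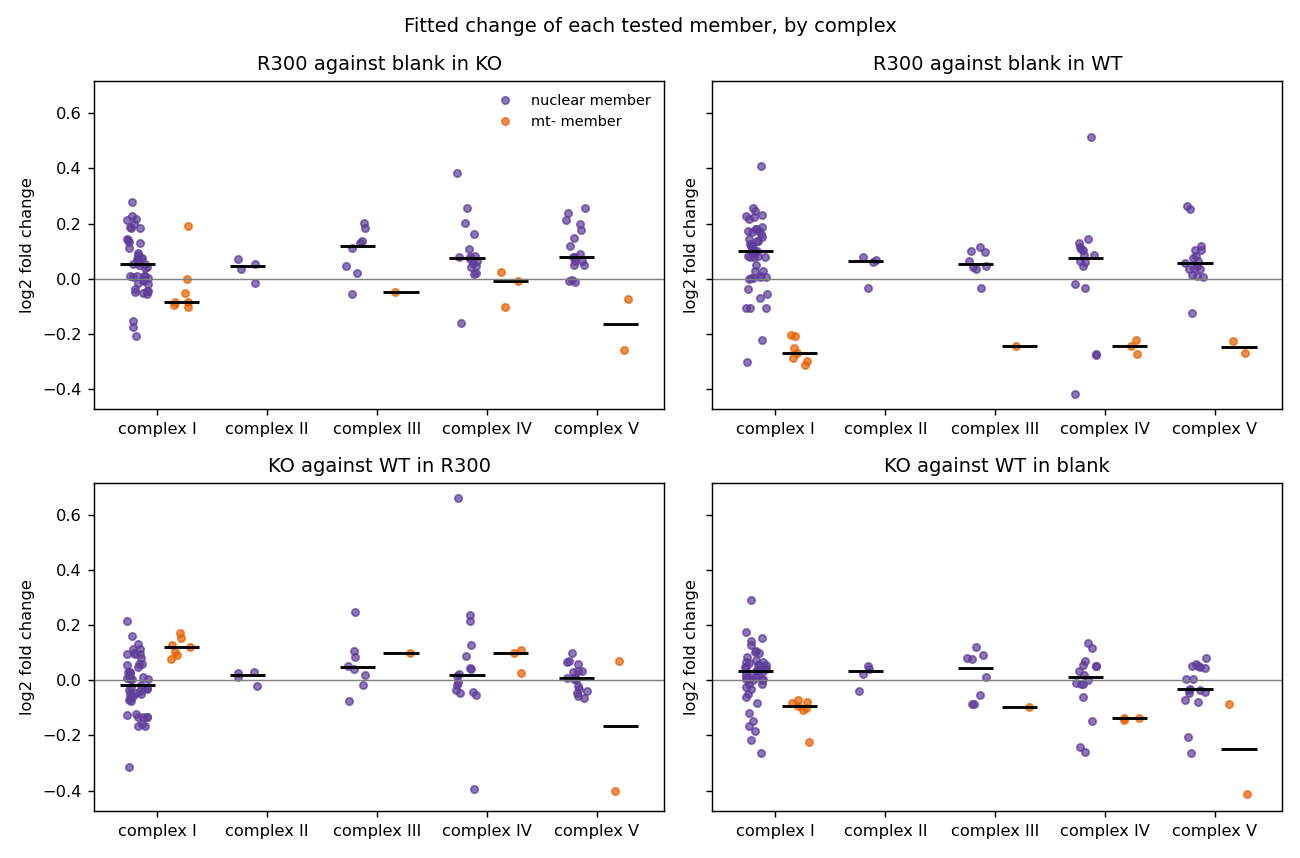
Fitted log2 fold change of each tested nuclear (purple) and mt- (orange) member by complex, for R300 against blank (top) and KO against WT (bottom); bars are medians of each group of points. None was called; in the WT panel of R300 against blank all 13 mt- points lie between -0.31 and -0.20.

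Among the mt- members, mt-Co1 illustrates the spread. It had 7355, 7175 and 9761 CPM in KO R300 libraries, against 6875, 8963 and 10223 CPM in KO blank libraries, and 7139, 9362 and 7319 CPM in WT R300 libraries, against 6823, 12720 and 9229 CPM in WT blank libraries. The R300 values lay inside the blank range in each genotype. The log2 change was -0.10 (SE 0.24) in KO and -0.27 (SE 0.24) in WT, with adjusted p values of 0.984 and 0.853 from edgeR's quasi-likelihood test.

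Some nuclear members separated by library, though none was called. Without overlap, 11 of 92 nuclear members (12%) had all 3 R300 libraries above all 3 blank ones in KO, against 6.64% of all genes. In WT 13 (14.1%) did, against 6.74%. None had all R300 libraries below, against 5.68% of all genes in KO and 6.09% in WT. Of 111 tested members, 5 had all R300 libraries above in both genotypes, namely Atp5d, Atp5md, Ndufb4, Ndufb9 and Ndufs4. Of 16546 tested genes, 554 (3.35%) showed this pattern. This too depended on scaling. On plain library totals 6 nuclear members (6.52%) were above and 1 (1.09%) below in KO, against 4.70 and 9.09% of all genes. In WT 2 (2.17%) were above and 3 (3.26%) below, against 4.76 and 8.75%. No nuclear member was above in both.

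Atp5d encodes the delta subunit in the central stalk of the ATP synthase (chr10:80138632-80145818, plus strand, GRCm38). It had 103, 95.7 and 96.4 CPM in KO R300 libraries, against 86.2, 84.5 and 84.1 CPM in KO blank libraries. It had 104, 94.6 and 106 CPM in WT R300 libraries, against 87.5, 81.6 and 84.8 CPM in WT blank libraries. All 6 R300 libraries were above all 6 blank libraries. By edgeR's quasi-likelihood test the log2 change was 0.21 (SE 0.08, adjusted p = 0.354) in KO and 0.26 (SE 0.08, adjusted p = 0.240) in WT, so it was not called, although it had the lowest p of complex V in each genotype. DESeq2, run as an alternative, called it in WT (adjusted p = 0.0169) and not in KO. Its exons share 3.53% of their bases with Cbarp on the opposite strand, named here after its values were seen. Cbarp had 13.6, 13.5 and 21.9 CPM in KO R300 libraries against 2.54, 1.78 and 1.97 CPM in KO blank libraries, and 16.9, 23.0 and 19.0 CPM in WT R300 libraries against 3.29, 2.76 and 1.52 CPM in WT blank libraries. Cbarp was called in KO (log2 2.96, adjusted p = 0.000984, edgeR) and in WT (adjusted p = 0.00141), and as the kit keeps no strand, its part in the Atp5d counts was not tested.

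Atp5md encodes a small membrane subunit of the ATP synthase that helps its dimers to form. It had 26.2, 24.4 and 23.9 CPM in KO R300 libraries against 18.6, 22.3 and 21.5 CPM in KO blank libraries, and 26.5, 24.4 and 25.2 CPM in WT R300 libraries against 19.2, 24.1 and 20.6 CPM in WT blank libraries. The gap to the nearest blank library was narrow in WT. The log2 change was 0.25 in both genotypes (SE 0.11), with edgeR adjusted p values of 0.537 in KO and 0.555 in WT.

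The other 3 are accessory subunits of complex I, of which Ndufb4 and Ndufb9 belong to the membrane arm and Ndufs4 to the matrix arm. Ndufb4 had 15.5, 17.2 and 15.4 CPM in KO R300 libraries against 13.9, 15.3 and 14.4 CPM in KO blank libraries, and 17.7, 15.9 and 16.4 CPM in WT R300 libraries against 14.5, 14.0 and 13.8 CPM in WT blank libraries. In KO the lowest R300 and the highest blank library almost met, and its log2 change was 0.14 in KO and 0.24 in WT (SE 0.10 each, edgeR adjusted p = 0.822 and 0.497). For Ndufb9 the values were 11.1, 9.95 and 9.03 CPM in KO R300, with 8.91, 8.96 and 8.63 CPM in KO blank libraries, and 9.11, 8.41 and 9.42 CPM in WT R300, with 8.17, 8.18 and 7.45 CPM in WT blank libraries. Ndufs4 had 25.9, 23.3 and 24.2 CPM in KO R300, with 22.1, 21.6 and 23.1 CPM in KO blank libraries, and 23.6, 23.7 and 21.2 CPM in WT R300, with 20.4, 21.1 and 20.8 CPM in WT blank libraries. The log2 changes of Ndufb9 were 0.18 in KO and 0.18 in WT, and those of Ndufs4 0.13 and 0.14, none past the adjusted threshold.

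**Figure D4:**
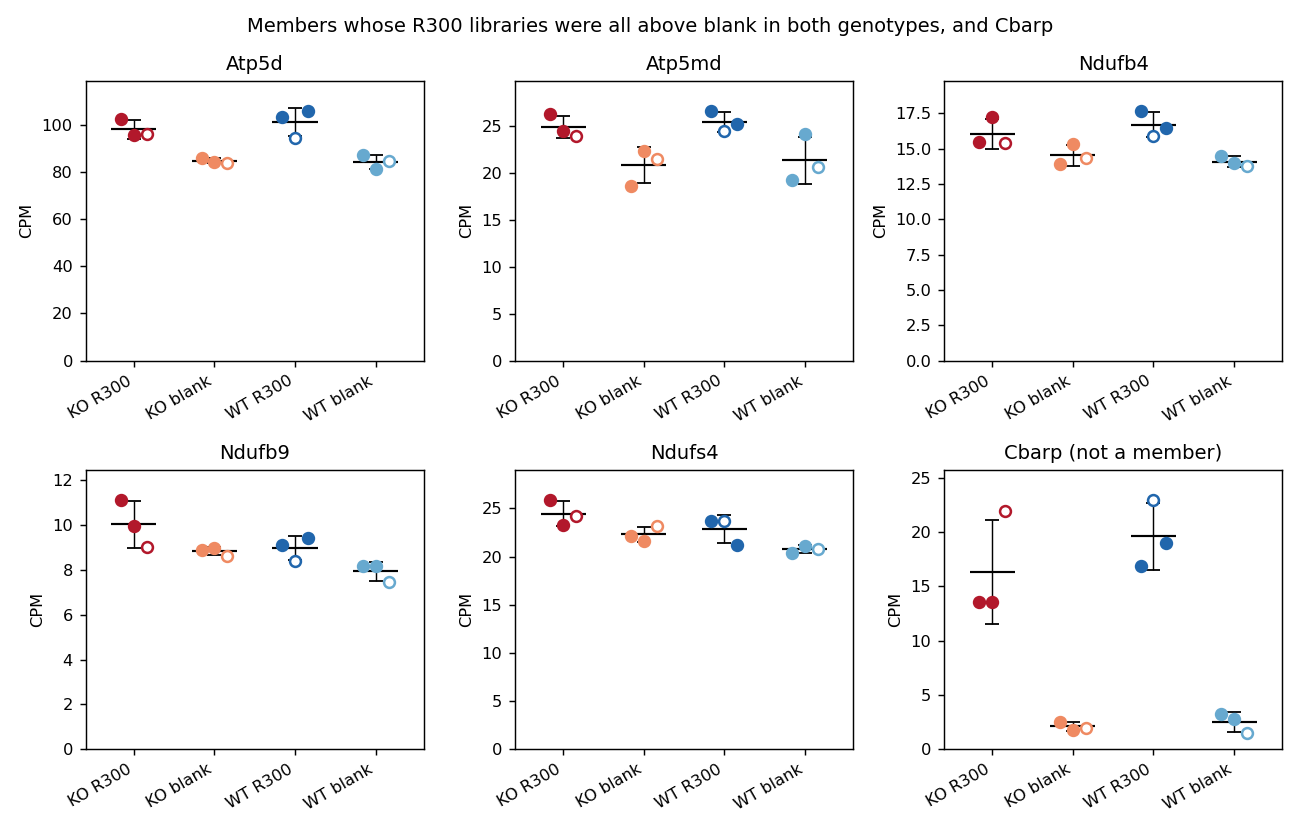
CPM in each library of the 5 nuclear members whose R300 libraries were all above the blank ones in both genotypes, and of Cbarp, which overlaps Atp5d on the opposite strand; open points are libraries without Xist and bars show the mean ± SD of 3. Atp5d lies between 94.6 and 106 CPM in R300 libraries and between 81.6 and 87.5 CPM in blank libraries.

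Among the members named for the lowest p of their complex, Ndufa8, an accessory subunit of complex I, had 34.4, 30.8 and 29.0 CPM in KO R300 libraries against 27.3, 25.9 and 27.9 CPM in KO blank libraries (log2 0.22, SE 0.10, edgeR adjusted p = 0.556). In WT libraries its groups overlapped (log2 0.13). Cox7a2l had 83.3, 82.6 and 112 CPM in KO R300 libraries against 93.2, 107 and 111 CPM in KO blank libraries, and 86.4, 111 and 88.0 CPM in WT R300 libraries against 99.1, 125 and 121 CPM in WT blank libraries. Its groups overlapped in both genotypes, with log2 changes of -0.16 in KO and -0.27 in WT (SE 0.15 each, edgeR adjusted p = 0.919 and 0.686). KO R300 library 3 and WT R300 library 2, both without Xist, were its highest R300 libraries. Cox5a gave log2 0.16 in KO and 0.09 in WT, Uqcrh 0.18 and 0.12, and Sdhd 0.05 and 0.07, and none of these was called.

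The genotype comparisons ask whether the Mac-Ern1KO label goes with other levels of the set. These comparisons use the same libraries as those above. No member was called by edgeR's quasi-likelihood test in R300 or in blank libraries, and no gene at all was (0% in each), while DESeq2 called 14 genes in R300 and 4 in blank libraries, none of them a member. No member had an unadjusted p under 0.05, against 1.96% of all genes in R300 and 1.09% in blank libraries. In R300 libraries, KO against WT, 52 of 92 nuclear members were above 0 with a median log2 change of 0.01 (48.6% of all genes were above 0), and 12 of 13 mt- members were above 0 with a median of 0.10. In blank libraries, 59 of 92 nuclear members were above 0 with a median of 0.02 (50.7% of all genes), and 0 of 13 mt- members with a median of -0.10. With the libraries that had Xist alone, 43 of 91 nuclear members were above 0 in blank libraries (median -0.02). In R300 libraries 42 of 91 were (median -0.01). Without the second WT blank library the mt- median in blank was 0.17, and without the first it was -0.32. In R300 it was -0.02 without KO R300 library 3 and 0.19 without the second WT R300 library, so the side of 0 on which the mt- members lay rested on single libraries in both.

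Some nuclear members did not overlap between the genotypes. In R300 libraries 4 of 92 (4.35%) had all KO above all WT libraries, against 4.03% of all genes. All KO libraries were below for 2 (2.17%), against 3.87% of all genes. In blank libraries 4 (4.35%) had all above, against 1.74% of all genes, and none all below, against 1.96%. On plain library totals 4 (4.35%) were above and 1 (1.09%) below in R300, against 3.77 and 3.95% of all genes. On the same scale 5 (5.43%) were above and 2 (2.17%) below in blank libraries, against 1.73 and 1.72%. With the main scaling, no member was on the same side in both, a pattern rare among all genes too (0.218% above and 0.411% below). mt-Nd3, a small complex I subunit, had 208, 205 and 216 CPM in KO R300 libraries against 190, 179 and 190 CPM in WT R300 libraries. These did not overlap, but the blank libraries did, at 152, 178 and 221 CPM in KO and 147, 314 and 182 CPM in WT. Its log2 difference of KO and WT was 0.17 in R300 (SE 0.23) and -0.22 in blank (SE 0.23) libraries, not called by edgeR's quasi-likelihood test.

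Whether the change with R300 was larger in KO than in WT was tested as an interaction, with WT subtracted from KO. No gene was called (0% of 16546), and 0.574% of all genes but no member had an unadjusted p under 0.05 in edgeR's quasi-likelihood test. For nuclear members the median was -0.01 with 43 of 92 above 0, where 48.5% of all genes were above 0. For mt- members it was 0.20 with 13 of 13 above 0. Without the second WT blank library it was -0.06, and without the first 0.40. No mt- interval of this difference lay within 1.5-fold, against 71 of 92 nuclear ones.

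mt-Atp8 varied more than the other mt- members. Its coding sequence on the mitochondrial genome (chrM:7766-7969, plus strand, GRCm38) overlaps the start of mt-Atp6, and both are carried by 1 mRNA. The sequence is shown because the 43 shared bases, in capitals, can be counted for either gene or for neither, which leaves 161 bases of its own.
mt-Atp8: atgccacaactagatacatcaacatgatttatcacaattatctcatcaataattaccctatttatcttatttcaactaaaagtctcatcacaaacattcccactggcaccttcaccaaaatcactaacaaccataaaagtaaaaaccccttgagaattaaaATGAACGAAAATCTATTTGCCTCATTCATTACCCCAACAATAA
It had 52.1, 24.0 and 36.6 CPM in KO R300 libraries, against 33.5, 52.2 and 49.1 CPM in KO blank libraries. It had 55.0, 42.9 and 50.9 CPM in WT R300 libraries, against 46.2, 97.2 and 35.7 CPM in WT blank libraries. Per 1000 reads of mt-Atp6, mt-Atp8 had 26.4, 12.2 and 13.3 reads in KO R300, 17.3, 22.9 and 17.4 in KO blank, 29.1, 17.1 and 25.5 in WT R300 and 24.9, 32.1 and 13.8 in WT blank libraries. The ratio thus differed more than 2-fold between the first and second KO R300 libraries, which were nearly alike over all genes.

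**Figure D5:**
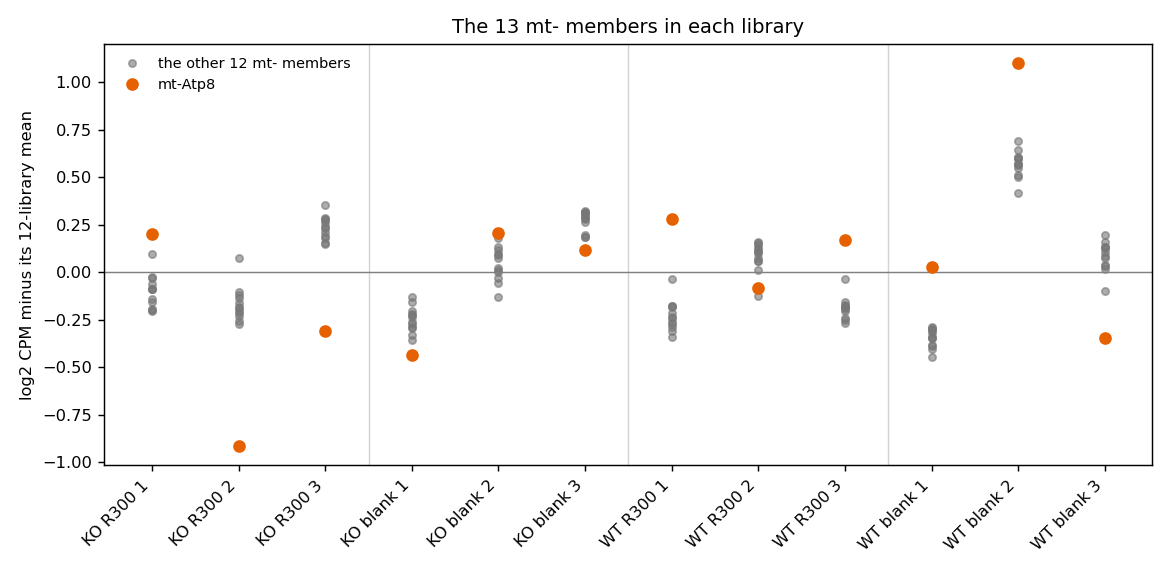
log2 CPM of each mt- member in each library minus its mean over the 12 libraries; grey points are 12 members and the orange point is mt-Atp8. The grey points of a library lie close together, all above 0 in the second WT blank library and all below 0 in the first, and mt-Atp8 departs from them most in the second KO R300 library.

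Nearby pathways were described by lists of genes outside the rule. Cyc1 and Cycs, the cytochrome c1 of complex III and cytochrome c, had log2 changes of 0.12 and 0.09 in KO and 0.10 and 0.12 in WT between R300 and blank. None of 37 assembly factors, 17 genes of the citric acid cycle, 17 of the quinone pool and other electron donors, 21 of mitochondrial DNA transcription and replication, 20 of the mitochondrial membrane and import, or 11 nuclear regulators was called in either genotype by edgeR's quasi-likelihood test. The median log2 change was -0.01 in KO and -0.04 in WT for the assembly factors, 0.01 and 0.01 for the citric acid cycle, 0.10 and 0.08 for the electron donors, -0.06 and -0.04 for mitochondrial transcription, -0.01 and 0.02 for membrane and import, and -0.20 and -0.07 for the regulators. Tfam, which packages and transcribes mitochondrial DNA, gave -0.12 in KO and -0.05 in WT, Nrf1 -0.17 and -0.07, Gabpa -0.10 and -0.10 and Esrra, the receptor ERRα, -0.20 and -0.16. The coactivator gene Ppargc1a was scarce, at 0.04 to 1.14 CPM, with log2 changes of 2.09 (SE 0.58, adjusted p = 0.181, edgeR) in KO and 2.18 (SE 0.65, adjusted p = 0.268) in WT. Ppargc1b, a related coactivator, had 1.41, 1.63 and 2.07 CPM in KO R300 against 6.4, 1.43 and 3.22 CPM in KO blank libraries, and 1.89, 3.29 and 1.51 CPM in WT R300 against 7.09, 1.17 and 3.00 CPM in WT blank libraries. Its log2 changes, -1.11 (SE 0.65) in KO and -0.74 (SE 0.64) in WT, were not called, and the highest value of each genotype was in the first blank library. Of 8 hypoxia genes that act on mitochondria, only Mxi1, a repressor of MYC targets, was called: it rose 6.01-fold in KO (log2 2.59, SE 0.16, adjusted p = 4.25e-05) and 5.07-fold in WT (log2 2.34, SE 0.16, adjusted p = 0.000103). In the genotype comparisons and the interaction none of these genes was called.

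Nuclear respiratory genes are known to share promoter elements for the factors NRF1, NRF2 (the ETS protein GABP) and YY1, and the RefSeq promoters (GRCm38.p6, from 250 bases before to 50 after the start) were searched for them on both strands. Promoters matched 77 of 98 nuclear members and 17492 protein-coding genes. The NRF1-type sequence, GCGCA and GCGC around 1 free base, was in 24.7% of the members' promoters and in 7.17% of all. The ETS-type sequence CCGGAAG was in 24.7% and 12.9%, the YY1-type sequence AAGATGGC in 14.3% and 3.57%, and the cyclic AMP element TGACGTCA in 5.19% and 2.54%. These shares describe letters, with no test, and the members' promoters had a median of 58.5% G and C, against 56.3%. The 250 bases before the start of 3 members described above that hold the NRF1-type sequence are shown from 5′ to 3′ on the gene's strand, with the NRF1-type and ETS-type matches in capitals.
Sdhd, chr9:50603850-50604099, minus strand: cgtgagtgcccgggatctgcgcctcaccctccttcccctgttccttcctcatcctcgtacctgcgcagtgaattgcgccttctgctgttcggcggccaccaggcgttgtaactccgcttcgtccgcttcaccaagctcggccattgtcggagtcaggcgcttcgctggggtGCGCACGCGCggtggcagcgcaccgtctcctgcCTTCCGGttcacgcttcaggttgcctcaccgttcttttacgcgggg
Cox6a1, chr5:115348959-115349208, minus strand: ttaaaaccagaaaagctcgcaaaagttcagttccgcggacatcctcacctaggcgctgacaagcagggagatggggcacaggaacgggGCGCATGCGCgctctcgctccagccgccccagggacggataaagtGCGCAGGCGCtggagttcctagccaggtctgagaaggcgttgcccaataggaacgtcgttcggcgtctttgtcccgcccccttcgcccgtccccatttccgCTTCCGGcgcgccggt
Ndufb4, chr16:37654369-37654618, minus strand: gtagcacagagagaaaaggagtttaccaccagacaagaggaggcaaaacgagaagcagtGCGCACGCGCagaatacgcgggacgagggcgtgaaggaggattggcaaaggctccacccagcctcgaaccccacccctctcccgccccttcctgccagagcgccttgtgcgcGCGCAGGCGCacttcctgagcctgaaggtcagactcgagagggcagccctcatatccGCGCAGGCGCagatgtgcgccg
Sdhd and Cox6a1 hold both kinds of match, and Ndufb4 holds 3 NRF1-type matches alone.

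Some members share sequence or position with other genes, and reads may be split between them. Ndufa12 had 2016 reads over the 12 libraries and Ndufa12-ps 2338, or 53.7% of the pair, which bears on the low level of Ndufa12 given above. Cox5b-ps took 7.59% and Ndufab1-ps 5.15% of the reads of their pairs, and Ndufb4c, a copy, 19.6% of the reads of Ndufb4 and Ndufb4c together. Atp5pb-ps, Ndufs5-ps and Ndufs6b took 1.04, 2.36 and 1.56%. Of 110 tested members with an annotation, 34 share exonic bases with a gene on the opposite strand, 20 of them over 5% of their bases. None of the 6 -ps members was called in any comparison.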

How the data were processed

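Poly(A) RNA libraries made without strand information were sequenced by the authors, who per the submitters' processing notes used FastQC 0.12.1, fastp 0.23.4, HISAT2 (2), featureCounts 2.0.3, DESeq2 1.42.0 and build mm10; the strand and multi-mapping settings are not given in the sources used here. The deposited values are whole-number counts per gene symbol. Rows without a symbol (0.0232 to 0.0328% of counts) were left out. From the counts, edgeR 4.0.16 in R 4.3.3 was run on 12 libraries with trimmed mean of M values scaling, filterByExpr over the 4 groups and robust quasi-likelihood tests, adjusted by the Benjamini-Hochberg method over 16546 genes in each of 5 comparisons. CPM use the scaled library sizes. Depth was 21759259 to 44263362 counts. Positions, lengths and overlaps came from GENCODE M21, promoters from RefSeq.

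The members, lists and comparisons were chosen with earlier results of these data known. Named genes were the mt- members, the highest per length and the lowest p of each complex, isoform families and members without overlap in both genotypes or treatments; Sdhc, Ndufa12, the gene copies and Cbarp were chosen after their values were seen. Replicate numbers paired KO with WT in blank libraries alone (correlations 0.514, 0.535 and 0.558), where blocking on them changed no call. Alternatives are described at the close. The tests were tried on simulated counts.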

Additional observations from a re-analysis of the deposited data

How the results depend on the processing

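In edgeR's quasi-likelihood fits the number of members called was 0 in all 5 comparisons under every alternative run: size factors by the relative log expression method, library totals, totals without mt- rows, no low-count filter, the compared groups alone (which allow no interaction), a term for libraries without Xist, libraries with Xist alone, 1 library of each near-alike pair, each library left out, and the replicate block. DESeq2 called 1 member in WT for R300 against blank, Atp5d (adjusted p = 0.0169, 363 genes called in all), and none in KO (442 genes). With the replicate block, 141 genes were called in KO and 119 in WT, and the block confined to blank libraries, added after the data were seen, gave an mt- median of -0.07 for KO against WT. Leaving out 1 library at a time gave 45 to 171 called genes in KO and 32 to 135 in WT, and nuclear medians of 0.0067 to 0.0937 in KO and 0.06 to 0.09 in WT. With library totals the nuclear median in KO was 0.0051 and Sdhd in KO turned to -0.0057. mt-Co1 in KO ranged from -0.27 to 0.0139 over fits without 1 library. Ppargc1a in KO passed the threshold with DESeq2 (adjusted p = 0.0368) and with the Xist term (0.0327). The causes were not tested. The mt- medians turned with single libraries in KO for R300 against blank and in the genotype comparisons. In WT the mt- median for R300 against blank came to 0.0009 without the second WT blank library. This dependence limits what 3 libraries per group can show.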
